A study of Mus musculus with 18 samples.

Results

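The binding of the transcription factors NFIA and NFIB was compared in 12 of 18 CUT&Tag libraries from mouse cerebellar cells, 6 libraries of each factor. In CUT&Tag an antibody directs a transposase to the chromatin where its target sits, and the sequenced fragments mark the bound sites. The 12 libraries were those whose sample title and deposited name give the same target. In the other 6 the title names one factor and the deposited name the other, and they entered no comparison below except where stated. Each factor had 2 libraries at each of 3 stages: granule neuron progenitors (GNP) from mice at postnatal day 7, a hyperplasia sampled at postnatal day 28, and medulloblastoma (tumor) from adult mice. All cells were primary cells separated from the cerebellum on a Percoll gradient. The study's description calls the animals a genetically engineered mouse model. The strain, genotype and number of animals per library are not given in the sources used here, so p-values measure only the spread between these libraries, which may be technical.

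NFIA and NFIB belong to the nuclear factor I family, whose members share a conserved DNA-binding domain and bind as dimers to a palindrome with a TTGGC arm on each side. In cerebellar granule neurons the family is known for controlling migration, dendrite formation and the timing of late maturation genes. Granule progenitors divide in response to Sonic hedgehog, the pathway that is overactive in one class of medulloblastoma.

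The 12 deposited lists held between 55925 and 385466 summits, that is, single positions of highest signal, each with a −log10 score from the peak caller. The number of reads behind them is unknown. Because the lists differ in length, the 30000 summits with the highest scores on the 19 autosomes were used from each. The score of the 30000th summit ran from 3.46 to 9.84. It was higher in both NFIB libraries than in both NFIA libraries in GNP and hyperplasia, while in tumor the second NFIA library (6.49) lay above the second NFIB library (5.40). The log2 number of summits scoring at least 10 was 12.5 ± 0.748 (SD, n = 6) for NFIA and 14.3 ± 0.740 (SD, n = 6) for NFIB (exact permutation test within stages, two-sided, p = 0.0185, adjusted over 8 measures p = 0.0247). NFIA libraries came from the first and second numbered sets of each stage and NFIB libraries from the second and the third. Only the second set of each stage therefore held both factors. Titles of the third sets of GNP and hyperplasia add the word merged, which among the 12 libraries stands only with NFIB. What was merged is not stated, and the labels do not say what else a set shares beyond its title number and date. Target and set therefore cannot be fully told apart, and the values within the second sets are given beside the gene-end shares. The second NFIA library of hyperplasia stood apart, with 20.4% of its summits tied at the last score used. The 6 libraries left out lay, over the regions called below, in the order opposite to their titles at each of the 3 stages.

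Most regions found in at least 3 libraries held summits of both factors. Summits were widened by 100 bp on each side and merged into 91449 regions. The 35943 with a summit in at least 3 libraries were kept. Of these, 96.1% had a summit of both factors. The rule of 3 libraries itself favors regions with both factors, so this share does not measure the overlap over all summits. In all 12 libraries 6849 of the kept regions (19.1%) had a summit, and these are called common regions below. The Jaccard index of 2 libraries is their shared regions divided by all kept regions of either library. Its mean was 0.609 for 2 libraries of the same factor and stage and 0.603 for libraries of different factors at the same stage. This difference of 0.00664 did not pass an exact permutation test (one-sided, p = 0.222, smallest possible 0.0370). Libraries from different stages had a mean index of 0.559. In GNP the NFIA pair had an index of 0.616, the NFIB pair 0.692 and the pairs of different factors 0.640 on average. The corresponding values were 0.486, 0.654 and 0.560 in hyperplasia and 0.567, 0.641 and 0.609 in tumor. In each stage the NFIB pair was the most alike and the NFIA pair the least alike. Without the second NFIA library of hyperplasia the mean difference was 0.0119 (exact permutation p = 0.111).

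**Figure D1:**
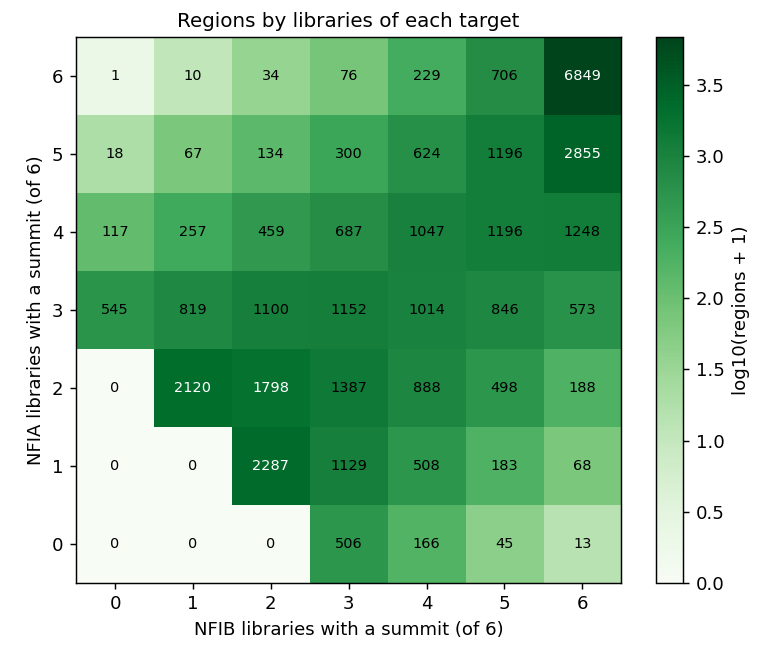
Number of regions (in each square) by how many of 6 NFIA libraries (vertical axis) and 6 NFIB libraries (horizontal axis) had a summit there; shading is log10(regions + 1). The fullest square is the 6849 regions with summits in all 12 libraries, and the corners with 6 libraries of one factor and 0 of the other hold 13 and 1 regions.

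In the 12 libraries compared, NFIB summits lay near gene ends more often than NFIA summits. Within 1 kb of the start or end of a protein-coding gene lay 26.5% ± 1.86 of NFIB summits and 22.4% ± 2.37 of NFIA summits (SD, n = 6 each). The NFIA shares were 24.3% and 23.8% in GNP, 24.4% and 18.2% in hyperplasia and 21.6% and 22.3% in tumor. The NFIB shares were 29.2% and 27.0% in GNP, 27.8% and 25.5% in hyperplasia and 25.0% and 24.3% in tumor. Both NFIB libraries lay above both NFIA libraries in 3 of 3 stages. The difference of 4.03 percentage points gave p = 0.00926 in an exact permutation test of the target within stages (two-sided, 216 assignments, the smallest p they can give; adjusted over 8 measures p = 0.0185). The mean difference was 4.08 points in GNP, 5.30 in hyperplasia and 2.72 in tumor. Within the second sets NFIB exceeded NFIA by 5.46 points in GNP, 9.56 in hyperplasia and 2.71 in tumor. Without the second NFIA library of hyperplasia the difference was 2.99 points (exact permutation p = 0.0185). The 6 libraries left out had the opposite order by title at each stage. In GNP, hyperplasia and tumor the share was 27.6%, 28.5% and 24.9% in those titled NFIA. It was 25.0%, 26.1% and 19.6% in those titled NFIB. With all 18 libraries grouped by title the difference was 1.54 points (exact permutation p = 0.259). Another measure moved with it: 74.3% ± 9.80 of NFIA and 89.5% ± 1.78 of NFIB top summits (SD, n = 6) lay in regions with summits in at least 3 libraries, with no overlap in any of the 3 stages (exact permutation p = 0.00926, adjusted p = 0.0185). The part of this measure and of the scores in the gene-end difference was not tested.

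The share within 500 bp of a gene start in RefSeq, computed without chromosome 18, was 19.7% ± 2.30 for NFIA and 23.9% ± 1.76 for NFIB (SD, n = 6; exact permutation p = 0.00926, adjusted p = 0.0185). Correspondingly, the interior of genes held 42.1% ± 0.833 of NFIA and 40.1% ± 1.33 of NFIB summits (exact permutation p = 0.00926, adjusted p = 0.0185). The rest, between genes, made up 35.4% ± 1.97 and 33.5% ± 0.829 (exact permutation p = 0.0185, adjusted p = 0.0247). The gene-end difference was 6.50 points among the 5000 highest summits and 2.29 among the next 5000. In further steps of 5000 ranks it was 1.99, 3.39, 3.16 and, in ranks 25001 to 30000, 6.86. In this last step the second NFIA library of hyperplasia had a share of 4.56%, against 14.2% to 19.8% in the other NFIA libraries. The gene-end difference depended on choosing summits by rank. Among summits scoring between 5 and 10, the share was 21.7% ± 5.07 for NFIA and 17.8% ± 2.46 for NFIB (exact permutation p = 0.157), the opposite direction, and with all summits scoring at least 5 the difference was −1.53 points (p = 0.528). This band holds unlike ranks: 3016 to 14655 summits lay above it in NFIA libraries and 9573 to 29454 in NFIB libraries. From the first to the last step of 5000 ranks the mean share fell from 29.4% to 14.7% with NFIA. With NFIB it fell from 35.9% to 21.5%.

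**Figure D2:**
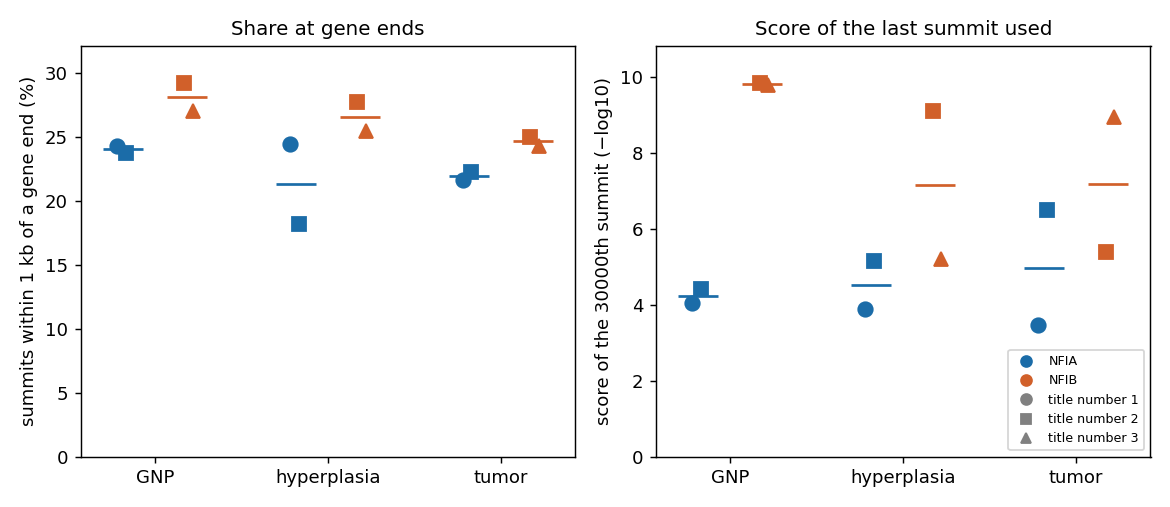
Left, share of the 30000 highest summits within 1 kb of a gene end (%); right, −log10 score of the 30000th summit. Each point is a library, its shape gives the title number of its set, and lines are means of the 2 libraries of a factor at a stage. The mean gene-end share is higher with NFIB by 4.08, 5.30 and 2.72 points in GNP, hyperplasia and tumor, while the scores of the factors cross in tumor.

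The strength of binding relative to other sites was compared over the 6849 common regions, which every library holds. In each library the regions were ranked by score, 1 being the highest, and the ranks converted to normal scores, on which 1 unit is 1 SD of all common regions in that library. A limma model with stage and target called 309 regions (4.51% of the 6849) at a Benjamini-Hochberg adjusted p under 0.05. NFIB ranked higher in 200 (2.92%) and NFIA in 109 (1.59%). Unadjusted p was under 0.05 in 1343 regions. The 6 NFIB libraries lay above the 6 NFIA libraries without overlap in 55 of the 200, and the 6 NFIA above the 6 NFIB in 34 of the 109. Over all common regions 67 (0.978%) and 47 (0.686%) were so separated. Stage by stage, the median difference in the 200 was 1.16 in GNP, 1.01 in hyperplasia and 0.97 in tumor, in the 109 it was −1.07, −1.06 and −0.88, and over all common regions it was −0.02, −0.02 and −0.01. The 309 regions were chosen for this difference in the same libraries, so the likeness of the stages follows in part from that choice and is no check of it. With the numbered set as a term in place of stage, which leaves the difference to the second sets and 2 residual degrees of freedom, 172 regions were called (119 with NFIB and 53 with NFIA higher), 111 of them among the 309.

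How many regions were called changed when single libraries were left out and when a score covariate was added. The count was 103 without the second NFIB library of GNP, 140 without the second NFIB of hyperplasia, 161 without the second NFIA of GNP and 187 without the third NFIB of GNP; without the second NFIA of hyperplasia it was 231. With the log2 score of the 30000th summit as a covariate, chosen after seeing the data, 40 regions were called, 25 with NFIB and 15 with NFIA higher. In GNP and hyperplasia this score was higher in both NFIB libraries than in both NFIA libraries. Score and target therefore cannot be fully told apart by this fit. With all 18 libraries grouped by title no region was called (307 at unadjusted p under 0.05 in limma).

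Regions in which NFIB ranked higher were mostly at gene ends. Of the 200, 168 (84.0%) lay within 1 kb of a gene end, 14 inside genes and 18 between genes. Of the 109 in which NFIA ranked higher, 20 (18.3%) lay at gene ends, 46 inside genes and 43 between genes. Among all common regions 33.7% were at gene ends. Put by position, NFIB ranked higher in 7.27% of the 2311 gene-end regions, 0.561% of the 2494 inside genes and 0.881% of the 2044 between genes. For NFIA these shares were 0.865%, 1.84% and 2.10%. The median difference over all gene-end regions was 0.21, against −0.14 inside genes and −0.09 between genes. Position and rank come from the same libraries as the shares at gene ends above, so these counts are a description of the called regions.

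**Figure D3:**
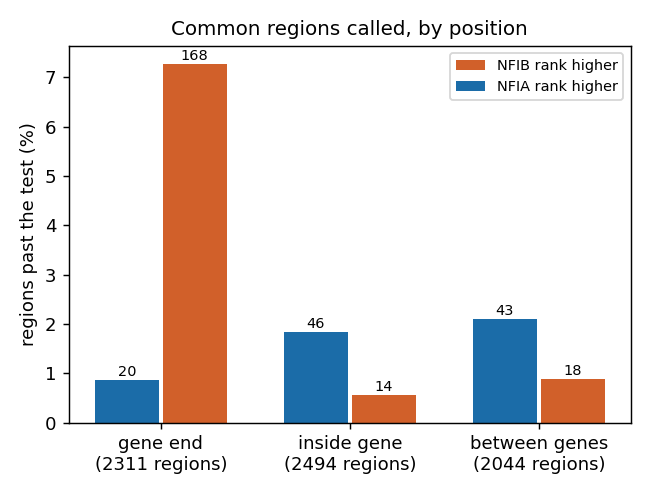
Share of common regions past the test (%, vertical axis) by their position, for regions in which NFIB ranked higher and in which NFIA ranked higher; the number over each bar is the count of regions. NFIB-higher regions concentrate at gene ends (168 of 200) and NFIA-higher regions inside and between genes (46 and 43 of 109).

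The NFIB-higher regions with the lowest p lay at promoters. The 250 bases before the gene start are shown for the 5 of lowest p, so that their motifs can be compared, and for Rnf44, the only promoter among the 8 NFIA-higher regions of lowest p. They are from RefSeq (GRCm38.p6), written 5′ to 3′ on the gene's strand, with CCAAT or its reverse complement ATTGG in capitals. Pwwp2a (chr11:43681748-43681997, plus strand), Map3k3 (chr11:106084337-106084586, plus strand) and Numb (chr12:83921935-83922184, minus strand) each hold 4 copies, Pja2 (chr17:64331884-64332133, minus strand) holds 2, Stt3a (chr9:36767623-36767872, minus strand) holds 1, and Rnf44 (chr13:54693961-54694210, minus strand) holds 0.
Pwwp2a: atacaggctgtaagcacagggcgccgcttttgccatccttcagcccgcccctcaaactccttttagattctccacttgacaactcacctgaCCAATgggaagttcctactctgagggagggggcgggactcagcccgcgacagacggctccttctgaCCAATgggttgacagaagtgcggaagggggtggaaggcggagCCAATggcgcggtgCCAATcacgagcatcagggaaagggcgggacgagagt
Map3k3: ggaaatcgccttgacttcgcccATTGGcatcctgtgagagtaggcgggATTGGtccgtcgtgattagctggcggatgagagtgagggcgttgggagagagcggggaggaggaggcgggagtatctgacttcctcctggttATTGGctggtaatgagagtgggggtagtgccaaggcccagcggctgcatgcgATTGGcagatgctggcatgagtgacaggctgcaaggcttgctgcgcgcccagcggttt
Numb: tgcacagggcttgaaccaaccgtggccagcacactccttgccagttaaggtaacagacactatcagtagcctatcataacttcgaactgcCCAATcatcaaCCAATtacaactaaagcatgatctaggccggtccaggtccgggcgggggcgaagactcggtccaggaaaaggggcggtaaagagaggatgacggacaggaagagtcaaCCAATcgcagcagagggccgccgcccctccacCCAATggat
Pja2: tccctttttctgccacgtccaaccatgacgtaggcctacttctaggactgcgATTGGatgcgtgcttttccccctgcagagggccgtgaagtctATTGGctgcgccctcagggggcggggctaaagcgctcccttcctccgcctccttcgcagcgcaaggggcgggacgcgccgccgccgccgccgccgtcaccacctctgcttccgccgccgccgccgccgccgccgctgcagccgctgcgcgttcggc
Stt3a: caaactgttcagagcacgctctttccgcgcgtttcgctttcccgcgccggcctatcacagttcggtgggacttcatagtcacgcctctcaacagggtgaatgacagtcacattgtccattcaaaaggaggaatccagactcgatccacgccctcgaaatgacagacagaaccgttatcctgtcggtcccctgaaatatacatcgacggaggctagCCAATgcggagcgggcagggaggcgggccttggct
Rnf44: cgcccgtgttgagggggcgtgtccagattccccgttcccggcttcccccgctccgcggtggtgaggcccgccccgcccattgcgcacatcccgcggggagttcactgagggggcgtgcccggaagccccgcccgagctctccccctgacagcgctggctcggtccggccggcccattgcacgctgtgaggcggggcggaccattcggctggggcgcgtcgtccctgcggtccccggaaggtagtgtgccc

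At the Pwwp2a promoter (region chr11:43681719-43681984), the gene of a chromatin protein that binds H2A.Z nucleosomes, the 6 NFIA libraries ranked the region from 301 to 1630 (median 703) and the 6 NFIB libraries from 10 to 119 (median 25.0). All NFIB libraries lay above all NFIA libraries. The difference was 1.43 ± 0.19 (SE; limma adjusted p = 3.06e-06). Map3k3 encodes a kinase of the MAP kinase cascades. Its region (chr11:106084213-106084499) ranked from 29 to 249 (median 115) with NFIA and from 1 to 10 (median 4.50) with NFIB, a difference of 1.16 ± 0.16 (SE; limma adjusted p = 3.36e-06). Numb, the gene of a cell fate determinant that restrains Notch, ranked from 345 to 3392 (median 1175) with NFIA and from 9 to 172 (median 47.5) with NFIB at chr12:83921878-83922181. The groups did not overlap and differed by 1.51 ± 0.21 (SE; limma adjusted p = 4.30e-06).

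Pja2 encodes a ubiquitin ligase. Its region (chr17:64331988-64332266) was among the highest of all with NFIB, from rank 1 to 8, and ranked from 28 to 135 with NFIA. At Stt3a, the gene of a catalytic subunit of the oligosaccharyltransferase, NFIB ranks ran from 32 to 330 (median 76.0) and NFIA ranks from 330 to 2689 (median 2354), the extremes meeting at 330. The other NFIB-higher regions of the lowest p were at Arid4a, BC049715 and Stk11, the last encoding the kinase LKB1, with differences of 1.65, 1.49 and 1.32. In each of these 3, too, the 6 NFIB libraries lay above the 6 NFIA libraries.

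**Figure D4:**
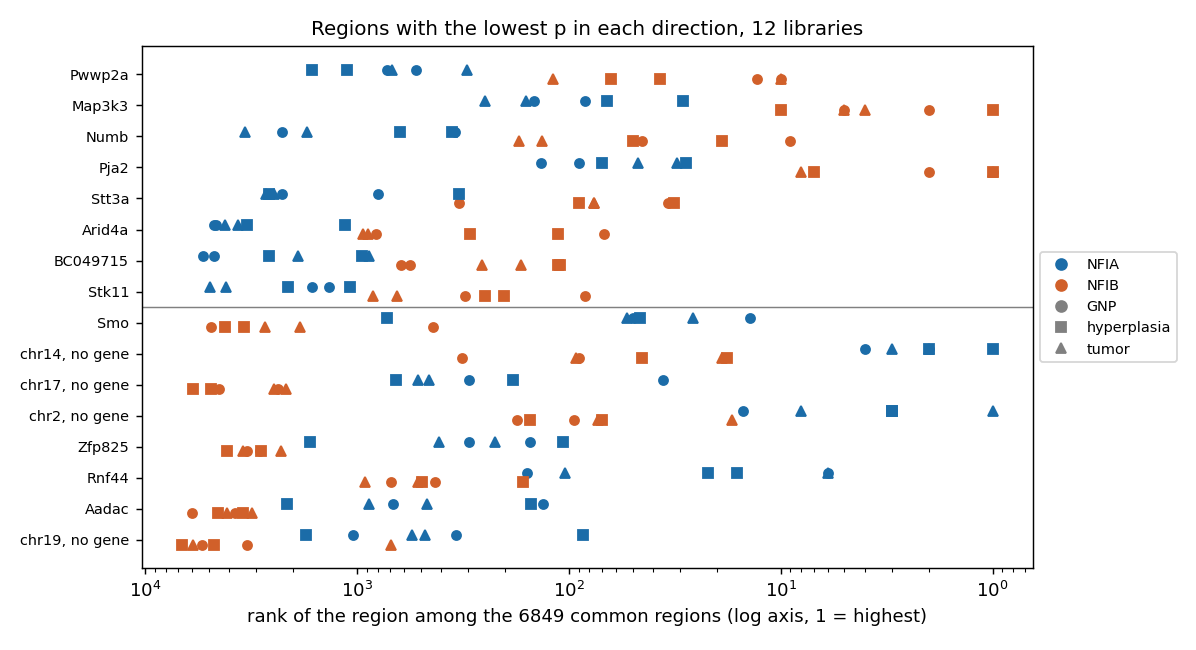
Rank of 16 common regions, the 8 of lowest p in each direction, in each of the 12 libraries (horizontal axis, log scale, 1 = highest); colour gives the target and shape the stage. Above the line NFIB ranks are higher, below it NFIA ranks are higher, and most rows show no overlap between colours; Smo and the chromosome 19 region overlap and Stt3a meets at rank 330.

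The region with the lowest p of all was inside Smo, whose product Smoothened transduces the Hedgehog signal, and was ranked higher by NFIA. It lies at chr6:29748279-29748661, 12896 bp from the nearer gene end. With NFIA its ranks were 50 and 14 in GNP, 719 and 46 in hyperplasia and 26 and 53 in tumor. With NFIB they were 4879 and 438, 4179 and 3428, and 1853 and 2725. The groups overlapped through the first NFIA library of hyperplasia and the third NFIB library of GNP. The difference was −2.10 ± 0.25 (SE; limma adjusted p = 3.14e-07).

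Of the 8 NFIA-higher regions with the lowest p, 4 had no protein-coding gene within 100 kb. Those on chromosome 14 (chr14:124801636-124802043) and chromosome 2 (chr2:98666700-98667204) ranked from 1 to 4 and from 1 to 15 with NFIA, and from 18 to 319 and from 17 to 176 with NFIB. Another such region, chr17:13552118-13552436, ranked from 36 to 653 with NFIA and from 2157 to 5962 with NFIB (difference −1.88 ± 0.27, SE). Regions prone to artifact signal were not removed here, and whether these regions are of that kind was not tested. Over all called regions the share was near that of all common regions: 10 of the 109 NFIA-higher regions (9.17%) had no gene within 100 kb, against 612 of the 6849 (8.94%). Of the NFIB-higher regions it was 4 of the 200 (2%). Among these 8, only the region of Rnf44, a RING-finger gene, lay at a gene end. At chr13:54693982-54694249 it ranked from 6 to 157 (median 19.0) with NFIA and from 165 to 917 (median 504) with NFIB, without overlap (difference −1.21 ± 0.20, SE; limma adjusted p = 8.40e-05).

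CCAAT was frequent in the promoters that NFIB ranked higher. The CCAAT box is a common promoter element, best known as the site of the factor NF-Y. RefSeq windows from 250 bases before to 50 after each gene start were searched on both strands, and 2090 common regions overlapped a window. CCAAT stood in the windows of 124 of the 155 NFIB-higher regions (80.0%), 8 of the 16 NFIA-higher regions, 55.5% of the 2090 common regions and 37.3% of all 31396 windows. A region that overlaps several windows counted if any of them matched, which raises its share against that of single windows. GCCAAT, in which CCAAT overlaps the GCCAA arm of the NFI palindrome, stood in 59.4%, 25.0%, 34.4% and 14.7%. CCAAT without a preceding G stood in 61.3%, 25.0%, 39.2% and 28.2%. The arm TTGGC, which overlaps CCAAT when the latter is preceded by G, stood in 80.0%, 62.5%, 66.3% and 46.7%, and counted only where its reverse complement GCCAA is not followed by T, in 47.7%, 43.8%, 48.2% and 37.5%. TTGGCNNNNNGCC, most of the NFI palindrome, was present in 5 of the 155 and 1 of the 16, and in 1.39% of all windows. The Sp1-type box GGGCGG stood in 85.2%, 87.5% and 78.3% of NFIB-higher, NFIA-higher and common promoter regions, and mean GC content was 62.1%, 63.8% and 63.3%. The form of the NFI palindrome given above stood in 56 of the 2090 common promoter regions (2.68%). Another form searched, with arms of equal length, stood in 1 of the 155 and 1 of the 16. It stood in 24 of the 2090 (1.15%) and in 0.825% of all windows. In all, 11 motifs were searched. CCAAT was picked out after its values were seen, and these shares are given without a test.

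In every one of the 12 libraries, promoters with CCAAT ranked higher on average than those without it. The difference in mean normal score lay between 0.12 and 0.32 in the NFIA libraries (median 0.21) and between 0.30 and 0.49 in the NFIB libraries (median 0.41). Both NFIB libraries exceeded both NFIA libraries in 3 of 3 stages. Over promoter regions, the median NFIB minus NFIA difference was 0.31 in the 1159 with CCAAT and 0.11 in the 931 without. NFIB ranked higher past the test in 10.7% of the former and 3.33% of the latter. Top summits in CCAAT windows lay a median of 55.0 to 60.5 bp from the nearest CCAAT in NFIA libraries and 46.0 to 58.0 bp in NFIB libraries, ranges that overlap. The number of such summits was 1139 to 1633 for NFIA and 1881 to 2266 for NFIB.

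**Figure D5:**
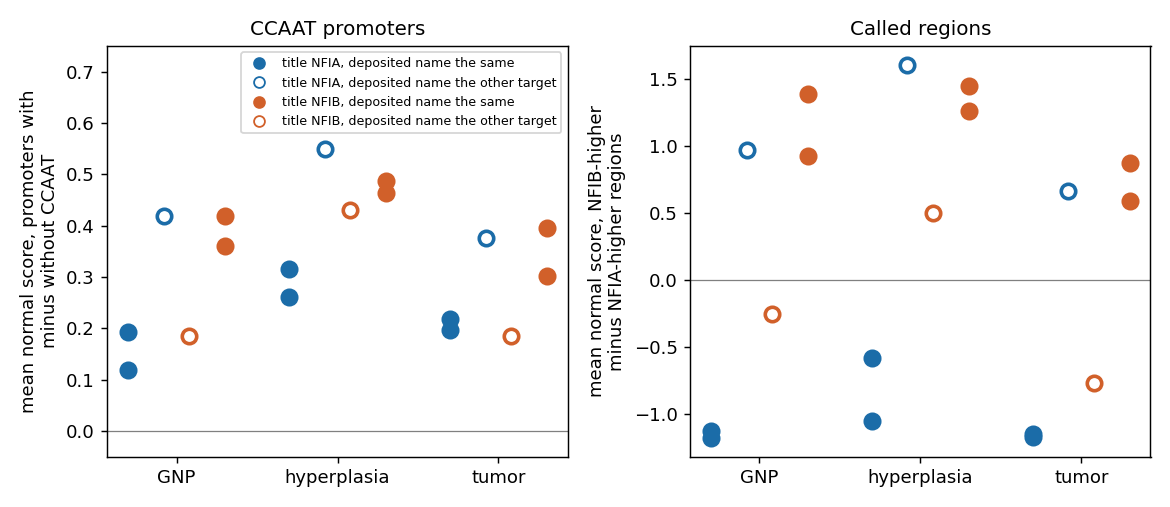
Left, mean normal score of common promoter regions with CCAAT minus those without; right, mean normal score of the 200 NFIB-higher minus the 109 NFIA-higher regions, which were chosen for this difference in the 12 libraries. Filled points are the 12 libraries compared and open points the 6 whose deposited name gives the other target; colour is the target in the title. The open points lie in the order opposite to their titles at each stage.

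The genes of the NFI family themselves showed no difference past the test. Nfia had from 18 to 32 summits per library, and the log2 difference in summits, NFIB minus NFIA, was 0.05 ± 0.15 (SE). For Nfib, Nfic and Nfix it was −0.17 ± 0.12, 0.14 ± 0.15 and 0.07 ± 0.11, and none of the 4 passed limma's test (adjusted p from 0.617 to 0.949). Of the family's 18 common regions none was called by rank. The largest difference among them was −0.92 ± 0.37 (SE; limma adjusted p = 0.143), inside Nfib at chr4:82447212-82447833. These p do not show that the factors bind the family's genes equally.

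In the Sonic hedgehog pathway list, 12 of 16 genes had enough summits to be tested and none passed. The median log2 difference in summits was −0.01, against 0.04 over all genes tested. Gli2, an effector of the pathway, had 17 to 26 summits per library and a difference of −0.02 ± 0.07 (SE). For Ptch1, its receptor, the difference was −0.25 ± 0.16. By rank, 1 of the pathway's 22 common regions (4.55%) was called, the one in Smo, against 4.51% of all common regions. The 7 regions of Gli2 had negative differences, from −0.0014 to −0.60 ± 0.30 (SE), and adjusted p of at least 0.258 (limma). Over all common regions inside genes the median difference was −0.14. Both regions of Ptch1 had positive differences, 0.63 ± 0.35 and 0.23 ± 0.29 (SE). Of the pathway's 22 regions 7 were higher with NFIB and 15 with NFIA.

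Among cell cycle genes 2 of 15 common regions were called, both at gene ends and both higher with NFIB; over all common regions NFIB was higher in 2.92%, and over those at gene ends in 7.27%. At Cdk4, the kinase partner of D cyclins, the region chr10:127063277-127063609 ranked from 745 to 3108 (median 1254) with NFIA and from 164 to 506 (median 359) with NFIB, a difference of 0.90 ± 0.23 (SE; limma adjusted p = 0.0160). At E2f3, a transcription factor of S-phase entry, ranks at chr13:29986126-29986384 ran from 384 to 3273 and from 88 to 544 (difference 1.11 ± 0.22, SE; limma adjusted p = 0.00144). NFIA and NFIB ranks did not overlap at Cdk4 and overlapped at E2f3. In the list of granule neuron differentiation genes, 1 of 22 was called (4.55%, against 4.51% of all common regions), a region 73332 bp from the splicing factor gene Rbfox1 that NFIA ranked higher (−1.16 ± 0.31, SE; limma adjusted p = 0.0205). A region inside Gad2, a GABA synthesis gene of interneurons, was higher with NFIB (1.24 ± 0.38, SE; limma adjusted p = 0.0455). This call was kept in 6 of 18 alternatives, with adjusted p from 0.0158 to 0.883. The Cdk4 call was kept in 13 of 20, and those of E2f3 and Rbfox1 in 18 and 15 of 19. None of the 11 regions of granule progenitor identity genes passed, and none of those of the neural stem cell, NFI target, astrocyte, oligodendrocyte, microglia, vascular and non-neural lists did.

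Summits present with one factor and missing with the other were rare. A summit was present in at least 5 NFIB and at most 1 NFIA library in 309 regions (0.860% of 35943), and the reverse held in 96 (0.267%). All 6 of NFIB and none of NFIA had one in 13 regions, and all 6 of NFIA and none of NFIB in 1. Fisher's exact test per region called 0 after adjustment. It gave 155 at an unadjusted p under 0.05, with 0.00216 the smallest it can give here. Of the NFIB regions 32.4% and of the NFIA regions 11.5% lay at gene ends, against 24.1% of all. Absence from the 30000 is not absence of signal: with summits of any score counted, 54 and 2 regions met the rule. Without the second NFIA library of hyperplasia the counts were 417 and 294, at thresholds of 1 library fewer for NFIA.

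Among the NFIB-only regions with the best ranks were sites inside Ralgps1 (chr2:33179129-33179368), 6948 bp from Amotl1 (chr9:14534841-14535195) and 3273 bp from Cbln1 (chr8:87475728-87476002). Cbln1 encodes cerebellin, the secreted protein by which granule cells organize synapses on Purkinje cells. Other listed genes near NFIB regions were Rbfox3 (0 NFIA and 5 NFIB libraries), Etv1 and Nrcam (1 and 6 each), and Gli2 and Nfix (1 and 5 each). Rbfox3, Etv1, Nrcam and Cbln1 are genes of granule neuron differentiation, a list in which 4 of 153 regions (2.61%) were in the NFIB set, against 0.860% of all. Of the 632 regions of any list 6 were in the NFIB set and 0 in the NFIA set, against 0.860% and 0.267% of all. The lists were not compared by a test. The single region with 6 NFIA and 0 NFIB libraries was 51291 bp from Olfr1402 (chr3:97462338-97462602). Inside Mindy2, chr9:70623177-70623502 had 6 NFIA libraries, all within rank 5482, and 1 NFIB library.

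By gene, few differences passed. Summits were assigned to the gene that contains them or lies nearest within 100 kb, and the 8665 genes that averaged 1 summit or more per library were tested as log2(summits + 0.5) with limma. Of these 6 (0.0692%) were called, 4 with NFIB higher (0.0462%) and 2 with NFIA higher (0.0231%), and 917 had an unadjusted p under 0.05. Rpp38, a subunit gene of RNase P, and Ggnbp2 had 1 summit in each of the 6 NFIA libraries and 2 in each of the 6 NFIB libraries (log2 difference 0.74 ± 0.04, SE; limma adjusted p = 0.000176 for each). Mthfd2, an enzyme of mitochondrial folate metabolism, had 1 in every NFIA library and 2 or 3 with NFIB (0.90 ± 0.11), and Cdpf1 likewise (0.82 ± 0.09). The secretin receptor gene Sctr had 1 to 3 summits with NFIA and 0 or 1 with NFIB (−1.18 ± 0.14), and the methionine sulfoxide reductase gene Msrb3 2 to 5 and 0 or 1 (−1.68 ± 0.22). The groups overlapped at Sctr across stages but not within one.

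All 6 genes had a mean under 2 summits, as had 52.9% of the genes tested, and in 2 of the 6 both libraries of every group held identical numbers, as in 3.87% of the genes tested. With the numbered set as a term 0 genes were called (636 at unadjusted p under 0.05 in limma). With genes of a mean of at least 2 summits, 0 of 4081 were called (419 at unadjusted p under 0.05 in limma). The count was 13 without the second NFIA library of GNP, 3 without the third NFIB of GNP and 2 without the first NFIA of tumor. Genes just short of the threshold included the cannabinoid receptor gene Cnr1 with NFIB (0.82 ± 0.12, SE; adjusted p = 0.0648 in limma), which had 2 to 4 summits with NFIA and 4 to 6 with NFIB, and Dgkh with NFIA (−1.97 ± 0.28, SE; adjusted p = 0.0643), with 1 to 3 and 0 or 1. Of the listed genes the lowest p was at Pcna, the replication clamp, with 1 or 2 summits with NFIA and 2 in each NFIB library (0.61 ± 0.12, SE; limma adjusted p = 0.191).

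By number of summits, no listed gene passed the test. Of 168 listed genes 161 matched an autosomal gene. No member of any of the 14 lists was called. Summits show binding and not expression, so the labelled cell type could not be checked by marker levels; Atoh1, the defining gene of granule progenitors, had 2 to 6 summits in each of the 12 libraries. In granule neuron differentiation 15 of 17 measured genes had higher values with NFIB (median 0.13), and in granule progenitor identity 4 of 14 did (median −0.05). Over all genes 4709 of 8665 did (median 0.04). By rank the differentiation list went the other way: 10 of its 22 common regions were higher with NFIB and 12 with NFIA. The median difference in normal score was −0.16 there, −0.07 in granule progenitor identity and −0.02 over all common regions. The lists of other cell types gave medians of −0.20 for 6 astrocyte and Bergmann glia genes, 0.08 for 7 oligodendrocyte, −0.04 for 5 vascular and −0.22 for 8 Purkinje cell and interneuron genes. Of the 9 microglia genes only Tmem119 and of the 8 non-neural genes only Ttn had enough summits to be tested.

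Whether the NFIA-NFIB difference in summits differed between stages was asked with an interaction test in limma. It called 60 genes (0.692%), and 493 had an unadjusted p under 0.05. Most of these calls rest on small identical numbers, as given below, and do not show an effect of stage. Dmrta1, a DM-domain transcription factor gene, had 1 summit with NFIA and 2 with NFIB in GNP, 3 and 1 in hyperplasia, and 0 and 1 in tumor, each in both libraries (limma adjusted p = 0.000345). Fam219a had 3 and 2, 1 and 2, and 0 and 2. In 50 of the 60 genes both libraries of every group held identical numbers, and 56 had a mean under 2 summits. None of 4081 genes was called with a mean of at least 2 (173 at unadjusted p under 0.05 in limma), and without single libraries the count was 104 to 204. Tested stage by stage, 35 genes (0.404%) were called in GNP, 56 (0.646%) in hyperplasia and 26 (0.3%) in tumor, and 33, 40 and 23 of these had identical numbers in both libraries of each factor. In 500 kb windows of the genome 0 of 3877 (0%) were called and 409 had an unadjusted p under 0.05 in limma. The lowest adjusted p was 0.0718, for chr11:88500001-89000000, with 13.2 ± 2.48 NFIA and 7.33 ± 0.516 NFIB summits (SD, n = 6).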

How the data were processed

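Per the submitters' processing notes, the authors' tools were Bowtie2 and MACS2 and the genome build was mm10; versions and settings are not given in the sources used here. Each deposited file lists summit positions with a −log10 score, which is that of a p or q value (which of them is not stated). The members and gene lists were chosen with earlier results of these data known. Groups came from sample titles. The 30000 highest autosomal summits per library were kept, ties broken at random, with no filter for regions prone to artifact signal. Summits were assigned to 20665 RefSeq genes (GRCm38.p6), to regions (100 bp on each side, at least 3 libraries) and to 500 kb windows. limma 3.58.1 (R 4.3.3, trend, stage and target as terms, Benjamini-Hochberg 0.05) tested log2(summits + 0.5) per gene and window and normal scores of ranks per common region; Python 3.11.15 and SciPy 1.17.1 ran the exact tests. Named genes were the 12 of lowest p in each direction (those called first), the 4 NFI genes, per list the 2 with most summits and the 1 of lowest p, and the 4 of lowest interaction p; the text gives only some. Named regions were the 8 of lowest p and the 5 presence regions of best rank in each direction. Other listed members called were added after their values were seen. In simulated data, gene numbers were Poisson draws around 1 mean per gene and regions had normal noise, both without a stage effect. There limma recovered 25 of 200 genes changed 2-fold and 150 of 200 changed 4-fold, with 1 and 7 false calls. Of 200 regions shifted by 0.5, 1 and 2 units it recovered 0, 64 and 192, with 0, 2 and 20 false calls. The spread of the real lists differs from such draws, so these recoveries need not hold for them. Protein sequences were not used here.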

Additional observations from a re-analysis of the deposited data

Results flagged for a closer look

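The second NFIA library of hyperplasia was flagged as an outlier among the 6 NFIA libraries in 2 measures. Of its top summits 39.3% lay between genes, the nearest other NFIA library having 35.1%, and 55.1% lay in regions shared by at least 3 libraries, the nearest having 73.7%. In all, 16 groups of 6 were checked, and chance flags about 1 in 20.

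A signal in libraries that no comparison used was flagged for the 6 libraries whose title and deposited name disagree. The value is the mean normal score of the 200 NFIB-higher minus that of the 109 NFIA-higher regions. It lay between −1.18 and −0.58 in the 6 NFIA libraries and between 0.59 and 1.45 in the 6 NFIB libraries from which the regions were chosen. In the libraries titled NFIB and deposited under NFIA it was −0.26 in GNP, 0.50 in hyperplasia and −0.77 in tumor. In those titled NFIA and deposited under NFIB it was 0.97, 1.60 and 0.67. At each stage the library titled NFIA had the higher value, the order opposite to that of the 12 libraries. The former are of the first and the latter of the third numbered set, so set, deposited name and target cannot be told apart. At the Smo region the former ranked 777, 960 and 6 and the latter 2864, 3294 and 2283.

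The interaction of stage and target called 60 genes, flagged as a difference between stages. Of these 50 had identical numbers in both libraries of every group.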

How the results depend on the processing

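Gene calls (6) were 0 with the 15000 highest summits, with all 18 libraries by title, for genes averaging 2 summits or more and with all listed summits scaled to equal totals (limma; 426, 499, 419 and 1540 at unadjusted p under 0.05). They were 13 without the filter, 12 within 10 kb of genes, 14 with the title date as a term, 3498 with scores of at least 5, all NFIB higher (15454 to 41071 such summits in NFIA and 33957 to 75621 in NFIB libraries), and 2 to 13 leaving out 1 library. Chosen after seeing the data, scaling the summits of score 5 or more gave 0 (1250 unadjusted), the gene-end share as covariate 2, the log2 score of the last summit 2, and that without the second NFIA library of hyperplasia 3. Interaction calls (60) were 0 with scores of at least 5, all 18 libraries or a mean of at least 2 (limma; 410, 350 and 173 unadjusted), and 104 to 204 leaving out 1 library. Windows (0 called) gave 3139 with scores of at least 5 and 0 to 1 leaving out 1 library. Common region calls (309) were 0 with all 18 libraries (limma; 307 unadjusted), 117 with the title date, 40 with the score covariate added later, and 103 to 291 leaving out 1 library. Presence regions of NFIA (96) and NFIB (309) numbered 2 and 3885 with scores of at least 5, 0 and 3 with all 18 libraries, 2 and 54 with absence from whole lists, 141 to 294 and 417 to 622 leaving out 1 library, where the rule is 1 library looser, and NFIB 185 with 15000 summits.

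The gene-end difference (4.03 points) was −1.53 with scores of at least 5 and 2.99 to 5.07 leaving out 1 library. With all 18 libraries by title it was 1.54 (exact permutation p = 0.259). The Jaccard difference (0.00664) was −0.00529 with all 18 libraries and −0.0227 to 0.0593 leaving out 1 library. The log2 list length difference (−0.34, exact permutation p = 0.537) was −0.751 to 0.0806 leaving out 1 library and 1.78 for summits scoring at least 10.

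At each stage 1 NFIA and 1 NFIB library share a title number and date. They did not deviate together: the correlation of their deviations from the group means, which with 2 libraries a group equals that of the other 2 libraries, was −0.036, −0.037 and −0.109 over genes and −0.108, −0.093 and −0.167 over common regions in GNP, hyperplasia and tumor; for the numbers of the deposited names it is the same with the sign changed. A replicate block by title number gave 0 genes (limma; 636 unadjusted) and 172 regions (119 NFIB, 53 NFIA higher), and by deposited number, the crossed pairing, 2 genes and 517 regions. The paired gene-end difference over the 3 second sets, also a replicate block, was 5.91 points, with a smallest possible p of 0.250.

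With scores of at least 5, unscaled, log2 differences of Sctr (1.44), Msrb3 (0.66), Nfib (1.03), Tiam1 (1.45), Gli2 (0.75), Zfp423 (1.28), Tcf4 (1.31), Rbfox1 (1.08) and E2f3 (0.83) turned positive. Sctr was 0.48 with all summits scaled and 0.83 with scores of at least 5 scaled, Rpp38 −0.0865 there, and Cdpf1 −0.0604 with 15000 summits. Of 388 further values of the 20 named common regions, 350 kept their call, 38 lost it and none turned. Depth in reads is unknown. The causes were not tested.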
